A study of Homo sapiens with 4 samples.

Results

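The UGT2B family consists of UDP-glucuronosyltransferases, and all 7 members sought by gene symbol (UGT2B4, UGT2B7, UGT2B10, UGT2B11, UGT2B15, UGT2B17 and UGT2B28) had entries among the 22981 genes of the tables. Total RNA depleted of ribosomal RNA was sequenced from 2 libraries labelled C4-2, a castration-resistant prostate cancer line derived from LNCaP, and from 2 libraries labelled LNCaP, a prostate cancer line that responds to androgen. Both lines were grown in RPMI medium with charcoal-stripped serum, which is depleted of steroids, so that no library comes from cells given androgen. LNCaP is labelled primary prostate cancer and C4-2 is labelled CRPC. Each line is a single cultured line, so a difference between them is a difference between these lines and not between stages of disease. The stored names of the tables carry the other line's name in all 4 cases, and the sample titles were followed, so C4-2 and LNCaP below mean the libraries labelled so. With the stored names instead, each difference would have the opposite sign.

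UGT2B enzymes sit in the membrane of the endoplasmic reticulum and join glucuronic acid, taken from UDP-glucuronate, to hydroxyl groups of steroids, bile acids, fatty acids and drugs. In prostate cells UGT2B15 and UGT2B17 conjugate dihydrotestosterone and its reduced metabolites, which ends their action and lets them leave the cell. Androgen is known to lower UGT2B15 and UGT2B17 RNA in LNCaP cells. The genes lie side by side on chromosome 4 and arose by duplication, so their RNAs are alike over long stretches.

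All 7 genes lie between positions 69402903 and 70361626 of chromosome 4 (hg19), a span of 958.7 kb. In the sequences below, capitals mark bases that differ from UGT2B17. Printed 5′ to 3′ are 60 coding bases from the same aligned place in each gene, chosen where UGT2B15 and UGT2B17 differ most. They were read from the GRCh37 genome at chr4:69433782-69433841 (minus strand) for UGT2B17, chr4:69535916-69535975 (minus) for UGT2B15, chr4:70080023-70080082 (minus) for UGT2B11, chr4:70146577-70146636 (plus) for UGT2B28, chr4:69682093-69682152 (plus) for UGT2B10, chr4:69962597-69962656 (plus) for UGT2B7 and chr4:70361162-70361221 (minus) for UGT2B4. The stretch lies in exon 2 of the UGT2B17 transcript and in exon 1 of the other 6.
UGT2B17: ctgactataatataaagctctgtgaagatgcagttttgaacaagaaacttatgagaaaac
UGT2B15: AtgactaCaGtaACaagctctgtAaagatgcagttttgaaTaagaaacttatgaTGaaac
UGT2B11: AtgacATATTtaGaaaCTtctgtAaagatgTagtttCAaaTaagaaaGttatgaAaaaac
UGT2B28: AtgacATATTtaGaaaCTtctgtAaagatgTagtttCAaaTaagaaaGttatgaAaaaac
UGT2B10: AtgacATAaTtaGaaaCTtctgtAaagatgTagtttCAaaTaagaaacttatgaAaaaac
UGT2B7: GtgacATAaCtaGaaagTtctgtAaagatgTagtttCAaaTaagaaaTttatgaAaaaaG
UGT2B4: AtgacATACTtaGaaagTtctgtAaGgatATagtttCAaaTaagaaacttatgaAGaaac
UGT2B15 differed from UGT2B17 at 9 of the 60 bases and UGT2B11 at 16. For UGT2B15 this is the most in any such window aligned without gaps within a single exon. Over the whole coding sequence UGT2B15 and UGT2B17 shared 1535 of 1590 aligned bases, so the 9 overstate their usual difference. UGT2B28 had the same 60 bases as UGT2B11, so a read within that stretch cannot be assigned to either gene.

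Over the whole coding sequence, UGT2B11 and UGT2B28 were 97.0% identical and UGT2B15 and UGT2B17 were 96.5% identical, the closest of the 21 pairs. UGT2B10 was 94.8% identical to UGT2B11 and 94.1% to UGT2B28. UGT2B15 and UGT2B17 were 84.0% to 85.4% identical to the other 5 members. The heat map of coding identity shows these groups.

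**Figure D1:**
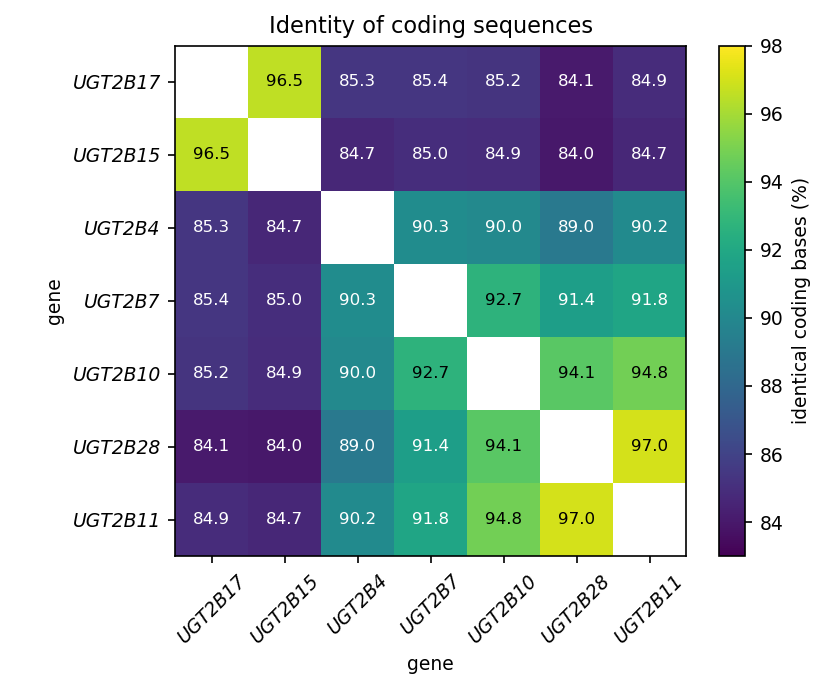
Percent identity of the aligned coding sequences of the 7 UGT2B genes, with each row and column 1 gene and brighter cells more alike. UGT2B11 with UGT2B28 (97.0%) and UGT2B15 with UGT2B17 (96.5%) are the closest, and UGT2B15 and UGT2B17 stand at 84.0% to 85.4% from the rest.

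Shared windows were counted on GENCODE transcripts and not on the entries whose tags were counted. The lengths can differ, at 2105 against 1706 bases for UGT2B11 and 2481 against 2076 for UGT2B17, though 2100 against 2102 for UGT2B4. Of all 50-base windows of the UGT2B11 transcript, 40.5% were also found in another gene's transcript, with the pseudogene UGT2B25P taking the largest share (22.2%). The value was 35.2% for UGT2B28, 27.1% for UGT2B15, 23.3% for UGT2B17 and 22.0% for UGT2B10, against 6.74% for UGT2B7 and 3.17% for UGT2B4. With 100-base windows the highest share was 12.4%, for UGT2B15. The labels give neither read length nor the treatment of reads that map to several places, so the division of tags between UGT2B11 and UGT2B28, and between UGT2B15 and UGT2B17, is uncertain.

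The tables count tags, that is reads assigned to a transcript, and sense tags of named genes came to 163095095 and 119057319 in the C4-2 libraries, against 58913716 and 70445841 in the LNCaP libraries. Values below are CPM, the tag count divided by the library size in units of 1000000 tags after TMM scaling. The authors' RPKM values imply larger library totals, of which sense tags of named genes made up 67.7% and 69.4% in C4-2, against 31.0% and 35.6% in LNCaP. This gap sets the scale of every fold change: edgeR's quasi-likelihood test on 15972 genes called 6426 higher and 6344 lower in C4-2 at an adjusted p under 0.05, whereas scaling by the totals behind RPKM called 11571 higher and 1756 lower and moved the median log2 fold change of all genes up by 1.004. Directions below are relative to the other genes' exon tags unless the second scale is named. Averaged over the 4 libraries, markers of luminal prostate cells were above 5 CPM in 13 of 13 cases. These markers summed to 4464 and 4420 CPM in C4-2, against 4271 and 4156 CPM in LNCaP. Basal, fibroblast and muscle, and immune and endothelial markers each summed to at most 21.7 CPM in any library. KLK3, the prostate-specific antigen gene and a classic androgen-induced gene, stood at 6.18 ± 0.065 CPM in C4-2 and 545 ± 17.1 CPM in LNCaP (SD, n = 2 each).

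UGT2B17 had 4301 and 3264 tags in the C4-2 libraries, against 1504 and 1792 in the LNCaP libraries. In CPM these were 26.8 and 27.7 in C4-2, against 25.04 and 25.3 in LNCaP. Both C4-2 values lay above both LNCaP values, but the gap was small: the log2 fold change was 0.11 ± 0.054 (SE) with an adjusted p of 0.0852 in edgeR's quasi-likelihood test, so UGT2B17 did not pass. It lies at chr4:69402903-69434245 on the minus strand.

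UGT2B15, the other main enzyme for dihydrotestosterone, had 4384 and 3324 tags in C4-2 and 1337 and 1605 in LNCaP. Its level was 27.3 and 28.2 CPM in C4-2, against 22.3 and 22.7 CPM in LNCaP. It rose by 0.30 ± 0.054 on the log2 scale (adjusted p = 0.000989, edgeR), a 1.23-fold difference. The gene lies at chr4:69512315-69536494 on the minus strand, and its 26.7% of 50-base windows shared with UGT2B17 tie these values together.

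UGT2B11, whose substrates are less well known, had 1292 and 898 tags in C4-2 but 98 and 97 in LNCaP. These came to 8.04 and 7.61 CPM in C4-2, against 1.63 and 1.37 CPM in LNCaP. With a log2 fold change of 2.39 ± 0.12 (adjusted p = 6.00e-07, edgeR), its 5.24-fold rise was the largest fitted in the family. It lies at chr4:70066051-70080449 on the minus strand.

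UGT2B28, described to act on androgens and other steroids, had 453 and 363 tags in C4-2, against 29 and 48 in LNCaP. The level was 2.82 and 3.08 CPM in C4-2, against 0.48 and 0.68 CPM in LNCaP, a rise of 2.33 ± 0.19 on the log2 scale (adjusted p = 8.68e-06, edgeR). The gene lies at chr4:70146217-70160768 on the plus strand. UGT2B28 is the closest relative of UGT2B11, and their rises cannot be taken as independent.

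UGT2B10, best known for joining glucuronate to nitrogen atoms, as in nicotine, had 627 and 444 tags in C4-2, against 56 and 47 in LNCaP. In CPM it stood at 3.90 and 3.76 in C4-2 and at 0.93 and 0.66 in LNCaP. It rose by 2.28 ± 0.17 on the log2 scale (adjusted p = 5.59e-06, edgeR). It lies at chr4:69681713-69697741 on the plus strand.

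UGT2B4 and UGT2B7, both abundant in liver and acting on bile acids and many drugs, had the lowest counts. UGT2B4 had 111 and 89 tags in C4-2, against 24 and 32 in LNCaP, or 0.69 and 0.75 CPM in C4-2 and 0.40 and 0.45 CPM in LNCaP. Its log2 fold change of 0.75 ± 0.24 passed (adjusted p = 0.0200, edgeR), but adjusted p was 0.0874 without C4-2 replicate 2, 0.0700 without LNCaP replicate 1 and 0.158 in DESeq2. UGT2B4 lies at chr4:70345883-70361626 on the minus strand. UGT2B7, at chr4:69962193-69978705 on the plus strand, had 58 and 44 tags in C4-2 and 15 and 19 in LNCaP. At 0.36 and 0.37 CPM in C4-2, against 0.25 and 0.27 CPM in LNCaP, its log2 fold change of 0.50 ± 0.30 did not pass (adjusted p = 0.160, edgeR).

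All 7 members passed the filter on low counts. In C4-2, 5 of the 7 were called higher and none was called lower, where 80.0% of all genes tested were called, 40.2% higher and 39.7% lower. In all 7 the lines did not overlap, as in 89.9% of all genes tested, with both C4-2 libraries above both LNCaP libraries, as in 44.6%. UGT2B10, UGT2B11 and UGT2B28 were called and at least 4-fold higher, which held for 2.68% of all genes tested. The median log2 fold change of the 7 was 0.75, against -0.01 over all genes. Scaled by the totals behind RPKM, all 7 were called higher, with log2 fold changes of 1.12 for UGT2B17 and 3.39 for UGT2B11, where 72.4% of all genes were called higher. The labels do not say that the 2 libraries per line are separate cultures, and the p-values therefore reflect only the spread between libraries, which may be technical. In bulk RNA, fewer cells with a transcript and less of it per cell cannot be told apart.

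**Figure D2:**
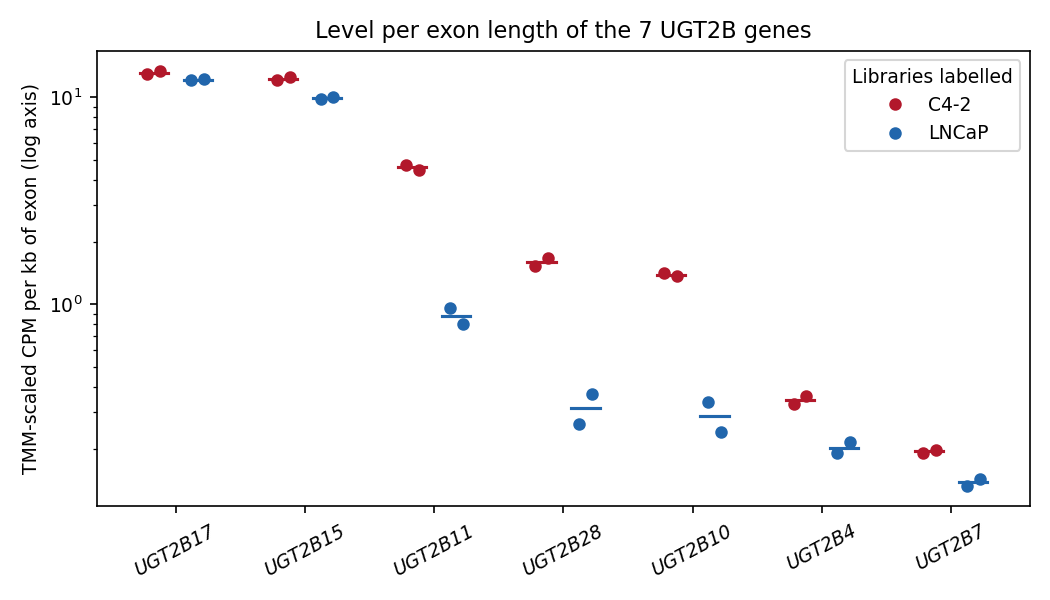
TMM-scaled CPM per kilobase of exon of the 7 UGT2B genes in each library (points) with the mean per line (short lines), on a log axis, C4-2 left of LNCaP. UGT2B17 and UGT2B15 lie between 9.86 and 13.3 CPM per kilobase in all 4 libraries, while UGT2B11, UGT2B28 and UGT2B10 separate by line.

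**Figure D3:**
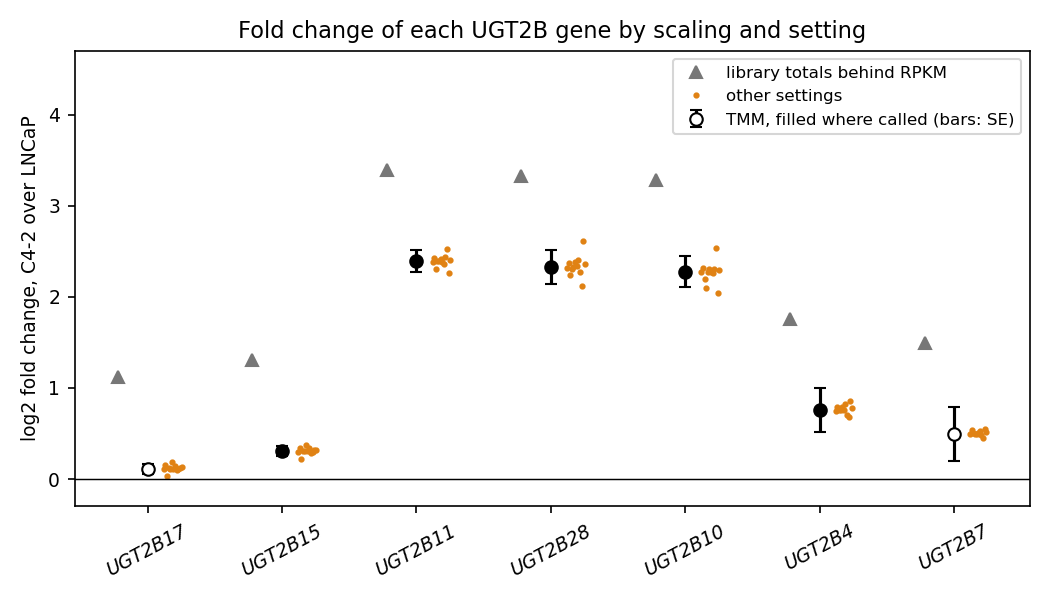
Log2 fold change of C4-2 over LNCaP with its standard error for each UGT2B gene, by edgeR with TMM scaling (circles, filled where called), by scaling to the totals behind RPKM (triangles) and under the other settings tried (small points). UGT2B11, UGT2B28 and UGT2B10 stand at 2.39, 2.33 and 2.28 on the TMM scale, and UGT2B17 at 0.11.

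Per kilobase of exon, the order of levels was the same in the 2 lines: UGT2B17, UGT2B15, UGT2B11, UGT2B28, UGT2B10, UGT2B4 and UGT2B7. In C4-2, UGT2B17 averaged 13.1 ± 0.30 and UGT2B15 12.3 ± 0.28 CPM per kilobase, and in LNCaP they averaged 12.1 ± 0.096 and 9.95 ± 0.13 (SD, n = 2). UGT2B11 came next at 4.59 ± 0.18 CPM per kilobase in C4-2 and 0.88 ± 0.11 in LNCaP. UGT2B28 stood at 1.61 ± 0.099 and UGT2B10 at 1.39 ± 0.036 CPM per kilobase in C4-2. In LNCaP, UGT2B28 at 0.32 ± 0.075 and UGT2B10 at 0.29 ± 0.069 CPM per kilobase overlapped between libraries, while no other neighbours in the order did. UGT2B4 and UGT2B7 ended the order, at 0.34 and 0.20 CPM per kilobase in C4-2 and 0.20 and 0.14 in LNCaP. The authors' own RPKM for UGT2B17, which uses the larger totals, was 8.59 and 9.17 in C4-2 and 3.82 and 4.37 in LNCaP.

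Since near-identical copies can trade reads, tags were also summed over the family. The sum takes in reads traded among the 7 members only, and pseudogenes lie outside it. For UGT2B11, 40.5% of 50-base windows were shared with any other gene and 24.6% with other members. Whether a shared read was counted more than once is not known. The 7 genes held 11226 and 8426 tags in C4-2, against 3063 and 3640 in LNCaP. The sum was 70.7 ± 1.09 CPM in C4-2 and 51.2 ± 0.31 CPM in LNCaP (SD, n = 2 each), a ratio of 1.38 with no overlap between lines. How tags fall within that sum differed more. UGT2B10, UGT2B11 and UGT2B28 together held 21.1% (95% Clopper-Pearson interval 20.4 to 21.9) and 20.2% (19.4 to 21.1) of UGT2B tags in the C4-2 libraries, against 5.97% (5.16 to 6.87) and 5.27% (4.57 to 6.05) in the LNCaP libraries. UGT2B15 and UGT2B17 together held 77.4% and 78.2% in C4-2 and 92.8% and 93.3% in LNCaP. UGT2B4 and UGT2B7 held between 1.27% and 1.58% in every library. These intervals cover counting error only.

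Per 100 tags of UGT2B17, a ratio that no scaling between libraries can change, UGT2B11 had 30.0 and 27.5 tags in C4-2, against 6.52 and 5.41 in LNCaP. UGT2B10 had 14.6 and 13.6 in C4-2, against 3.72 and 2.62 in LNCaP. UGT2B28 had 10.5 and 11.1 in C4-2, against 1.93 and 2.68 in LNCaP. These ratios were 4.84-fold (UGT2B11), 4.51-fold (UGT2B10) and 4.76-fold (UGT2B28) higher in C4-2, with no overlap between lines. UGT2B15 had 101.9 and 101.8 tags per 100 UGT2B17 tags in C4-2, against 88.9 and 89.6 in LNCaP, a 1.14-fold difference. The 6 ratios were compared by exact two-sided permutation, which with 2 libraries a line cannot go below p = 0.333, and each gave 0.333.

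**Figure D4:**
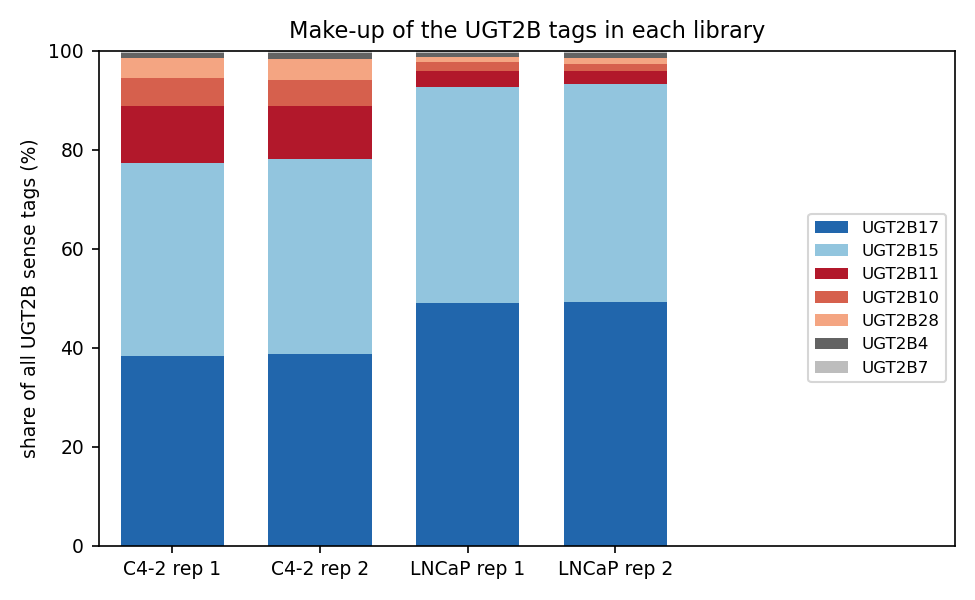
Share of all UGT2B tags held by each gene in each library, in percent, with the C4-2 libraries first. UGT2B10, UGT2B11 and UGT2B28 together take 21.1% and 20.2% in C4-2 and 5.97% and 5.27% in LNCaP.

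UGT2B10 and UGT2B28 also have a shorter transcript entry. The shorter UGT2B10 entry had 565 and 404 tags in C4-2 and 49 and 43 in LNCaP, and the shorter UGT2B28 entry had 412 and 323 in C4-2 and 27 and 45 in LNCaP. Their CPM ratios, 4.88 and 4.89, were close to those of the longer entries, with which they share most tags. The tables also place UGT2B10 transcripts at a second site, chr4:69870295-69886113 on the minus strand, where GENCODE annotates the pseudogene UGT2B27P. That entry had 231 and 155 tags in C4-2, against 31 and 24 in LNCaP, a 3.22-fold CPM ratio, and it was not counted in UGT2B10. Set against UGT2B10, its tags came to 36.8% and 34.9% in C4-2 and 55.4% and 51.1% in LNCaP. Of the 50-base windows of the GENCODE transcript of UGT2B27P, 18.2% were shared with UGT2B10.

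On the opposite strand, UGT2B17 had 1 and 163 tags in the C4-2 libraries, against 0 and 1 in the LNCaP libraries. UGT2B15 had 4 and 152 on that strand in C4-2, against 3 and 3 in LNCaP. C4-2 replicate 2 thus stood apart from the other 3 libraries, with 4.76% of UGT2B17 tags and 4.37% of UGT2B15 tags on the opposite strand. With tags of both strands counted, the log2 fold change of UGT2B17 was 0.19, against 0.11 on sense tags, and passed (adjusted p = 0.0240, edgeR). That setting adds the 163 tags of C4-2 replicate 2. It also moved UBA6, which had at most 10 opposite-strand tags in any library, from 0.46 to 0.50.

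Promoter sequences, from 250 bases before the start of the gene to 50 after it (RefSeq, GRCh38.p14), were at hand for 4 members: UGT2B7, UGT2B10, UGT2B11 and UGT2B15. UGT2B10 and UGT2B11, which rose together, are printed with UGT2B15, which rose little. They lie at chr4:68815744-68816043 (plus strand), chr4:69214699-69214998 (minus) and chr4:68670603-68670902 (minus), and capitals mark TAAACATAAAAG, the longest run of bases found in all 4.
UGT2B10: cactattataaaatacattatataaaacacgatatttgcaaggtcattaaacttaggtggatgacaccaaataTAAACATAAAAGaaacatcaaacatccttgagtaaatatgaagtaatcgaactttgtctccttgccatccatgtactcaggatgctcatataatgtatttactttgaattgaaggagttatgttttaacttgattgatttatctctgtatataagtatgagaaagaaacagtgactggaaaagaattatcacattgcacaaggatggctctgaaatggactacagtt
UGT2B11: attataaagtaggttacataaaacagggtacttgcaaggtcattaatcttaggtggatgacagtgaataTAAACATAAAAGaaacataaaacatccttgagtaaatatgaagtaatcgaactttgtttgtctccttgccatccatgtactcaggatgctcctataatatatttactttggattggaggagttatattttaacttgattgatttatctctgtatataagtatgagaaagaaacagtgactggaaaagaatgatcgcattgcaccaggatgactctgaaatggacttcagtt
UGT2B15: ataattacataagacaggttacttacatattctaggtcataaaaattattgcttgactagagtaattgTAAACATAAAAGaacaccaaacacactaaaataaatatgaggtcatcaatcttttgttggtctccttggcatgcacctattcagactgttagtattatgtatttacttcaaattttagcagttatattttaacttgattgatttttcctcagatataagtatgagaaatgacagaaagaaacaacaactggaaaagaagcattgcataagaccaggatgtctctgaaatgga
The 12 capital bases begin 177, 181 and 182 bases before the start of UGT2B10, UGT2B11 and UGT2B15, and 175 bases before that of UGT2B7. The run was chosen because the 4 share it, so its being shared is no finding. Within it lies TAAACA, the core bound by forkhead factors such as FOXA1, which was present on either strand in 12.3% of 35093 RefSeq promoters of the same length. GTTAAT, a core bound by HNF1 factors, was in none of the 4 windows and in 6.88% of all promoters. The UGT2B10 and UGT2B11 promoters were 90.1% identical, against 61.5% to 69.5% for the other 5 pairs. UGT2B7 holds the same 12 bases, and its log2 fold change of 0.50 ± 0.30, on 15 to 58 tags per library, did not pass. UGT2B15 rose 1.23-fold. The part of these sequences in the differences between lines was not tested.

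Of the genes within 1 Mb of either end of the UGT2B span, 36 had entries and 26 of these had at most 5 tags in every library. Among the 8 tested, 4 rose, 3 fell and 1 did not pass, where 40.2% of all genes tested were called higher and 39.7% lower. YTHDC1, a reader of methylated adenine in RNA, stood at 110 ± 2.41 CPM in C4-2 and 57.1 ± 1.80 CPM in LNCaP (SD, n = 2 each), a log2 fold change of 0.95 ± 0.044 (adjusted p = 3.73e-07, edgeR). TMPRSS11E, a serine protease gene and the closest tested neighbour, rose by 0.57 on the log2 scale, UBA6 by 0.46 and CENPC by 0.20. ODAM fell by 1.28, and TMPRSS11B and FTLP10, with at most 18 tags in any library, fell by 1.21 and 1.84. Of these 7 calls, those of YTHDC1 and UBA6 held under every alternative setting, and each of the other 5 was lost under at least 1 of them. UBA6-DT gave 0.09 and did not pass (adjusted p = 0.208, edgeR). UGT2A3, a sister glucuronosyltransferase inside the span, had 0 and 5 tags in C4-2 and 5 and 0 in LNCaP. None of the 8 was called and at least 4-fold higher, which held for 2.68% of all genes tested, and for UGT2B10, UGT2B11 and UGT2B28. At that share, its absence among 8 genes does not set the neighbours apart from other genes.

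**Figure D5:**
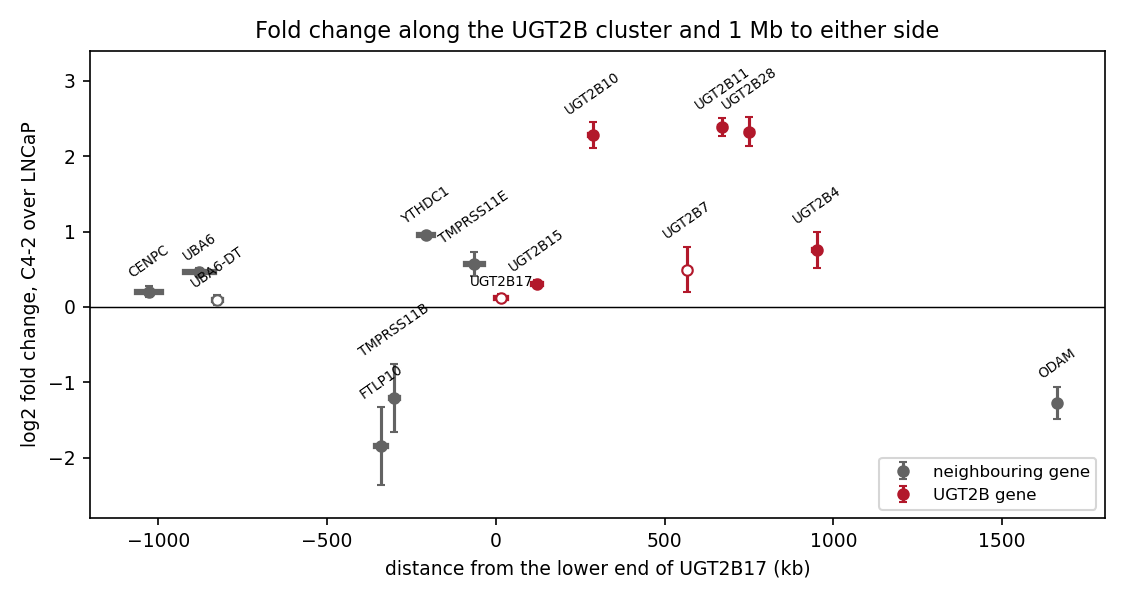
Log2 fold change of C4-2 over LNCaP for the UGT2B genes and tested neighbours, placed by distance along chromosome 4 from the start of the UGT2B span, with vertical bars for the SE, horizontal bars for the extent of each gene and open circles for genes that did not pass. UGT2B10, UGT2B11 and UGT2B28 stand above 2 and the tested neighbours between -1.84 and 0.95.

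Of 15 other UDP-glycosyltransferases listed, 10 were tested and all 10 fell on the TMM scale, where 39.7% of all genes tested fell. The 10 had a median log2 fold change of -1.24 against -0.01 over all genes, but none of them was called on the scale of library totals. Of these, 9 are UGT1A entries, which share their last exons: UGT1A4, UGT1A7 and UGT1A9 had the same 42 and 23 tags in C4-2 and 27 and 45 in LNCaP, so the 9 amount to 1 signal averaging at most 0.65 CPM in either line. On the scale of library totals their log2 fold changes were between -0.43 and -0.12. In DESeq2, UGT1A8 and UGT1A6 did not pass (adjusted p = 0.0551 and 0.0669), nor did UGT1A6 without LNCaP replicate 2 (adjusted p = 0.0661, edgeR). UGT8, which adds galactose to ceramide, stood at 15.1 ± 0.24 CPM in C4-2 and 30.2 ± 1.61 CPM in LNCaP (SD, n = 2 each; log2 fold change -0.996, adjusted p = 1.51e-06, edgeR), but at 0.01 on the scale of library totals.

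Genes that supply or remove glucuronate were all tested, 14 of 14, of which 9 rose, 3 fell and 2 missed the threshold (median log2 fold change 0.57). Of all genes tested, 40.2% were called higher and 39.7% lower. PGM1, which interconverts glucose phosphates on the way to UDP-glucose, stood at 111 ± 0.51 CPM in C4-2 and 16.1 ± 0.25 CPM in LNCaP (SD, n = 2 each), a log2 fold change of 2.79 (adjusted p = 3.97e-09, edgeR). The hexokinases HK2 and HK1 rose by 1.68 and 1.54, NUDT14, which splits UDP-glucose, by 1.27, and PGM2 by 0.89. Further members were picked for their place in the pathway after their values were seen. UGP2, which makes UDP-glucose, rose by 0.50, and UGDH, which oxidises it to UDP-glucuronate, rose by 0.70, to 129 ± 3.59 CPM in C4-2, against 79.3 ± 1.03 CPM in LNCaP. GUSB, the lysosomal enzyme that removes glucuronate, fell by 0.86, though on the scale of library totals it stood at 0.15. SLC35D1, which carries UDP-glucuronate into the endoplasmic reticulum where UGT2B enzymes work, had 2 and 0 tags in C4-2, against 33 and 30 in LNCaP. The CPM ratio of C4-2 over LNCaP was 0.0149, with a 95% counting interval of 0.00177 to 0.0561.

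Among genes of androgen reduction and oxidation, 23 of 31 were tested, 10 rose, 10 fell and 3 missed the threshold (median -0.23). Over all genes tested, 40.2% rose and 39.7% fell. RDH11, which reduces retinal and is abundant in prostate cells, rose by 0.98 and HSD17B4, a peroxisomal enzyme, by 0.93. HSD17B11 fell by 2.67 and HSD17B12 by 0.79, the last of these reaching 0.22 on the scale of library totals. CYP1B1, a steroid hydroxylase, had 0 and 0 tags in C4-2, against 116 and 146 in LNCaP, at least 186-fold lower in C4-2 with a floor of 3 tags over the C4-2 group.

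For steroid sulfation, the parallel route of conjugation, 10 of 13 genes were tested, of which 4 rose, 4 fell and 2 missed the threshold (median 0.05). SUMF1, which activates sulfatases, rose by 1.18 and STS, steroid sulfatase, by 0.62. SULT1A1 rose by 0.46 and SULT1A3, whose tags are uncertain because of a near-identical copy, fell by 1.11 but stood at -0.11 on the scale of library totals and was not called there. SULT2B1 fell by 1.003 but stood at 0.0030 on the scale of library totals. Among carriers that export conjugates, 8 of 11 were tested, 3 rose, 4 fell and 1 missed the threshold (median -0.73). The counts for sulfation and for export stand beside 40.2% of all genes tested called higher and 39.7% lower. ABCC4, which exports steroid conjugates, rose by 1.16, to 282 ± 0.65 CPM in C4-2, against 126 ± 0.94 CPM in LNCaP (SD, n = 2 each), and ABCC1 rose by 0.46. ABCC5, ABCC6 and ABCG2 fell by 1.47, 2.48 and 2.83.

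Of 29 regulators described for UGT2B genes, 20 were tested, 12 rose, 6 fell and 2 missed the threshold (median 0.22). The shares over all genes tested were 40.2% higher and 39.7% lower. FOXA1, a forkhead factor, rose by 0.21, CEBPA by 1.04 and RXRA by 0.98. CYP2J2, which is counted in this list but is a cytochrome P450 enzyme and not a transcription factor, rose by 1.25. PKNOX1 fell by 0.96 but stood at 0.05 on the scale of library totals. HNF4A and NR1I3, liver regulators, had no tag in any library. Hepatocyte markers summed to 74.4 and 73.7 CPM in C4-2, against 24.4 and 25.3 CPM in LNCaP, and this gap lay in CPS1, at 64.8 CPM in C4-2 and 17.1 CPM in LNCaP. Averaged over the 4 libraries, CPS1 was the only one of these 11 markers above 5 CPM, and ALB was at 0.10 CPM in C4-2 and 0.26 CPM in LNCaP. The part of such cells in the UGT2B differences was not tested.

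Among 11222 other genes compared over the 4 libraries, the nearest in pattern to UGT2B11 were SOX8, PCDHGA10 and ZNF629, at distances of 0.055, 0.081 and 0.084 between centred log2 CPM values. The nearest to UGT2B10 were PCDHGA9 (0.034), PCDHGB6 (0.066) and ADSS1 (0.11), and the nearest to UGT2B28 were ADAP1 (0.13), TRIM47 (0.20) and CHPF (0.20). Within a distance of 0.25 lay 32 genes for UGT2B11, 12 for UGT2B10 and 9 for UGT2B28. UGT2B17, with its near-flat pattern, had 2593 such genes, RP2, CAST and YIPF3 being the nearest. PHF13, POLR1F and SLC30A9 were nearest to UGT2B15, SLC39A11, SECTM1 and C3orf18 to UGT2B4, and UTP18, TMEM52 and CSTF3 to UGT2B7. With 4 libraries in 2 lines, likeness mostly restates the size of the difference between lines.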

How the data were processed

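Total RNA of 4 libraries was measured. Each library had 1 deposited table of sense and opposite-strand tag counts and RPKM for 41351 transcript entries on hg19, made by the authors; the submitters' processing notes name TopHat2 2.0.6 and Bowtie. The authors' RPKM values are relative to library totals that were recovered from them. Groups follow sample titles. Accessions were matched to symbols, and 1 entry per gene was kept. The entry kept was the one with the largest mean share of sense tags over the 4 libraries. Entries without a symbol held 2.07% to 2.16% of sense tags and were left out. Counts were fitted with edgeR 4.0.16 in R 4.3.3 (filter on low counts, TMM, quasi-likelihood test, Benjamini-Hochberg over all genes tested); DESeq2 1.42.0, other scalings, filters, transcript choices and left-out libraries were alternatives. The fit was tested on simulated data. Replicates of a line differed by more than counting noise (chi-square per degree of freedom 12.4 in C4-2 and 24.5 in LNCaP). Named genes are all members, up to 5 tested genes per list by smallest adjusted p, genes within 1 Mb, FOXA1 and KLK3 as context, and the 3 nearest genes in pattern. UGP2, UGDH, GUSB, SLC35D1, UGT1A4, UGT1A7, UGT1A9, HNF4A, NR1I3 and the markers CPS1 and ALB were named after their values were seen; 1 regulator is not reported here. Members and lists were chosen with earlier results of these data known.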

Additional observations from a re-analysis of the deposited data

Results flagged for a closer look

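UGT2B17 and UGT2B15 had 163 and 152 tags on the opposite strand in C4-2 replicate 2, data outside the sense counts, against at most 4 in any of the other 3 libraries. Of 12066 genes with at least 100 sense tags in every library, 10, with UGT2B17 and UGT2B15 among them, exceeded 4% opposite-strand tags in C4-2 replicate 2 while staying under 0.5% in the other 3 libraries. In the same way, 9, 9 and 11 genes did so in C4-2 replicate 1, LNCaP replicate 1 and LNCaP replicate 2. UGT2B28 had 8 and 2 opposite-strand tags in C4-2 replicates 1 and 2, against 0 in each LNCaP library. Its sense tags numbered 453 and 363 in C4-2 but only 29 and 48 in LNCaP, too few to compare the lines on this. The second UGT2B10 entry, at UGT2B27P, had 231 and 155 sense tags in C4-2 replicates 1 and 2, against 31 and 24 in the LNCaP libraries.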

How the results depend on the processing

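Over 89 alternative values of the 7 members, all kept their direction and 82 kept their side of the threshold. UGT2B17 passed with library totals (1.12), no filter (0.15) and both strands (0.19), and UGT2B7 with library totals (1.49). UGT2B4 failed without C4-2 replicate 2 (0.70), without LNCaP replicate 1 (0.68) and in DESeq2 (0.78), and a stricter filter dropped UGT2B4 and UGT2B7. With library totals, all genes gave 11571 higher and 1756 lower, pathway lists 9 lower against 37, neighbours 0 lower against 3, and the log2 ratio of summed UGT2B tags 1.47 against 0.46. On that scale UGT8 (0.012), HSD17B12 (0.22), SULT2B1 (0.0030) and PKNOX1 (0.046) changed sign. The summed ratio was 0.58 over all transcripts and 0.53 with both strands. A stricter filter gave 24 pathway genes and 1 neighbour lower, by testing fewer genes, and DESeq2 gave 2 neighbours higher and 1 lower. Leaving out 1 library at a time gave 0.46 to 0.49 for the summed ratio and 1 to 3 neighbours lower, the 1 coming without C4-2 replicate 1 and without LNCaP replicate 1. Where no construction explains a change, the cause was not tested.

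Same-numbered libraries of the lines did not deviate together (correlation -0.031 over all genes, 2 pairs). With so few libraries a line, this cannot exclude that the numbers pair them. A fit with the replicate number as a block called 6254 genes higher and 6131 lower and 5 UGT2B members higher. Of 527 alternative values of the named genes, 497 kept their call. The counts limit UGT2B4 and UGT2B7 most, at 15 to 111 tags per library.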
